A study of Mus musculus with 91 samples.

Results

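Among 91 single stromal cells sorted from mouse bone marrow, 61 held Cxcl12 at 5000 CPM or more and are called Cxcl12-abundant cells here. The cells were then selected on Fos: 29 had 2000 CPM or more and are called Fos-high, and 32 had less and are called Fos-low. CPM is the usual depth-scaled unit, a gene's count divided by the sum of all counts of its cell and multiplied by 1e+06. The classes were so chosen by the measured levels of Cxcl12 and Fos, and the levels of these 2 genes are given as a description. All cells came from the bone marrow of C57BL/6 mice, were freed by crushing the bones, and were index-sorted into plates and sequenced one by one with the full-length Smart-seq2 method. They were sorted as negative for CD45, Ter119, CD41 and CD71, which mark blood cells, and as stained by a DNA dye and by an antibody to VCAM1, through which stromal cells bind blood cells. Of the 91 cells, 40 were sorted as CD61- and 39 as CD61+, 9 were not split on CD61, and for 3 the title and the gate label disagree. CD61 is the integrin beta chain encoded by Itgb3. No treatment is named, and neither the animals' age nor which cells shared an animal is given in the sources used here. The cells are therefore no replicates of a condition, and no test was made.

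Cxcl12-abundant reticular (CAR) cells are perivascular stromal cells of the marrow that make CXCL12 and stem cell factor (Kitl), which retain and sustain hematopoietic stem cells and lymphoid progenitors. Fos is an immediate early gene: signals through MAP kinases, calcium, cyclic AMP or serum response factor switch on its transcription within minutes and without new protein, and its transcript is short-lived. The FOS protein pairs with a JUN protein to form the AP-1 transcription factor. In freshly isolated tissue cells, immediate early and heat shock genes are known to be expressed both in answer to signals in the animal and during cell isolation.

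The promoters of Fos and of 3 genes described below are shown first, because the motifs of factors that act on immediate early genes were searched in them. The sequences are the 250 bases before the RefSeq start site, 5′ to 3′ on the gene's own strand, from build GRCm38.p6. Capitals mark a match to the cAMP response element TGACGTCA in Btg2 and Dusp1 and to the CArG box, the binding motif of serum response factor, in Zfp36. The Fos stretch (chr12:85473640-85473889, plus strand) held no exact match to either motif; near matches and bases farther upstream were not searched. The Btg2 stretch lies at chr1:134079156-134079405, minus strand, the Dusp1 stretch at chr17:26508473-26508722, minus strand, and the Zfp36 stretch at chr7:28379229-28379478, minus strand.
Fos: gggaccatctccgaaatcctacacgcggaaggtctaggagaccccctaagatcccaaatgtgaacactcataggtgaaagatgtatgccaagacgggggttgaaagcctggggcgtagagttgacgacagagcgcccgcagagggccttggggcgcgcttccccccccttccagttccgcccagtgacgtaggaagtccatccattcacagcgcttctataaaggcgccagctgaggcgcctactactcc
Btg2: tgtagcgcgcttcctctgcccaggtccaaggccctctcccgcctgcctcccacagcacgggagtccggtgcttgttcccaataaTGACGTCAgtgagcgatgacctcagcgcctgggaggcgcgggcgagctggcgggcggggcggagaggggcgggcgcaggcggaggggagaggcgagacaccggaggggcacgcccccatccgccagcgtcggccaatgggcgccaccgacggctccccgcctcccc
Dusp1: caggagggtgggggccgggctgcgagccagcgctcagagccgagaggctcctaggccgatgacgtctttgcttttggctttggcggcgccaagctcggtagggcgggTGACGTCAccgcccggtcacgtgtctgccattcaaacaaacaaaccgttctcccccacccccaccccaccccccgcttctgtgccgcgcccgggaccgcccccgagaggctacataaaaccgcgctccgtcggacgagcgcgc
Zfp36: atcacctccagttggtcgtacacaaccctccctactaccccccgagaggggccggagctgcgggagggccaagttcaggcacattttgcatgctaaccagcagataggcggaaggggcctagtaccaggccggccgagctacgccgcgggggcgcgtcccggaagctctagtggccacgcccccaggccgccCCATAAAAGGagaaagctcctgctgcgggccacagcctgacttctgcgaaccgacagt

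Windows of 300 bases, from 250 before to 50 after the start, were found for Fos and 13 of the 15 genes searched with it, which were the AP-1 subunits and immediate early genes called below and Dusp1. Ier2 had no entry and Egr1 was not searched, so the counts leave both out. Both strands were searched, and no match overlapped another. The cAMP response element was in 2 of these 14 windows, 166 bases before the start in Btg2 and 143 bases before it in Dusp1, against 1.79% of 32851 RefSeq windows of the same length. The CArG box was in 1, 58 bases before the start of Zfp36, against 1.63% of windows. The AP-1 site TGANTCA was in 0 of 14, against 7.81% of windows. A match is a stretch of letters and no measured binding.

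The Cxcl12-abundant cells carried other CAR cell genes. The 14 CAR markers listed besides Cxcl12 all reached 10 CPM in at least 25% of the cells, and their summed level was 17019 to 61164 CPM, median 28715, in Fos-high cells and 11624 to 61478 CPM, median 31467, in Fos-low cells. Blood cell markers summed to a median of 0.292 CPM in Fos-high and 0.181 CPM in Fos-low cells, and to at most 602 and 1279 CPM. Of these 13 genes 3 (Laptm5, Lyz2 and Tyrobp) were at 0 in all 61 cells, and Ptprc, which encodes CD45, was at most 1.1 and 3.9 CPM. Of 12 endothelial markers 3 (Cdh5, Emcn and Flt4) were at 0 in all cells; the list summed to a median of 0 in both classes and to at most 61.2 CPM in Fos-high and 1455 CPM in Fos-low cells. Erythroid genes reached 2025 CPM in Fos-high and 11258 CPM in Fos-low cells, with medians of 0. Their part in the differences below was not tested.

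One Fos-low cell stood apart from the others. It came from the first CD61- plate and had 1244 genes, where the next lowest of the 61 cells had 2084, although its 1571949 reads were within the range of the rest. It held B2m at 1.27 CPM, the MHC class I light chain that every other Fos-low cell had at 4490 CPM or more, and Vcam1 at 0.636 CPM, where the others had at least 291 CPM. Yet it had the highest Kitl (17370 CPM), Csf1 (5024 CPM), Junb (6755 CPM) and Zfp36 (4822 CPM) of all Fos-low cells. It was kept by the rule. The median difference of the niche factors moved from -0.05 to -0.21 without it, and other values that it moves are given beside the genes. The names P1CD61minus, P2CD61minus, P1CD61plus and P2CD61plus are those of the plates, each of which held cells of 1 gate, and P210X and P310X held the cells not split on CD61. The 3 cells with conflicting labels were on P2CD61minus.

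Fos ranged from 2157 to 25394 CPM in Fos-high cells, with a median of 12711 CPM. In Fos-low cells it ranged from 0 to 1376 CPM, with a median of 6.67 CPM, and 12 of the 32 had no Fos count at all. The cells just above the limit had 2157, 2368 and 2415 CPM, and those just under it 1376, 1277 and 1150 CPM. Fos was thus near the limit in few cells: in 16 of 29 Fos-high cells it took 1% or more of all counts, and 16 of 32 Fos-low cells had under 10 CPM. Cxcl12 did not separate the classes: its median was 23699 CPM (8396 to 35055) in Fos-high and 23998 CPM (5558 to 37332) in Fos-low cells. The lowest Cxcl12-abundant cell had 5558 CPM and the highest cell left out had 3876 CPM.

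**Figure D1:**
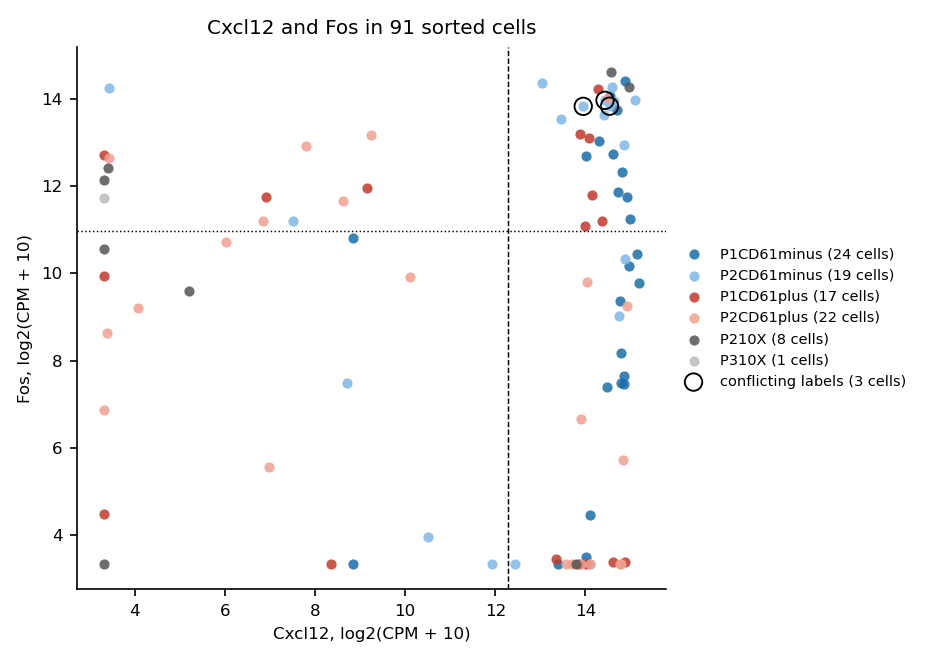
Fos (vertical) against Cxcl12 (horizontal), both as log2(CPM + 10), in each of the 91 cells, with colours for the plates and rings for the 3 cells with conflicting labels. The dashed and dotted lines mark the limits of 5000 CPM for Cxcl12 and 2000 CPM for Fos; the 61 cells right of the dashed line are the Cxcl12-abundant ones, 29 of them above the dotted line.

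Fos-high cells were found in every gate. They were 17 of 33 Cxcl12-abundant cells (51.5%, exact binomial interval 33.5 to 69.2%) in the CD61- gate and 7 of 22 (31.8%, 13.9 to 54.9%) in the CD61+ gate, so the intervals of the gates overlap. In the gate not split on CD61 they were 2 of 3, and the 3 cells with conflicting labels were all Fos-high. These intervals, at 95%, cover the counting of cells only.

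The plates of the same gate did not have the same share. On P2CD61plus only 1 of 11 cells was Fos-high (9.09%, 0.230 to 41.3%), while on P1CD61plus 6 of 11 were (54.5%, 23.4 to 83.3%). On P1CD61minus 10 of 22 were Fos-high (45.5%, 24.4 to 67.8%), and on P2CD61minus 10 of 14 (71.4%, 41.9 to 91.6%). Without P2CD61plus, the share in the CD61+ gate was that of P1CD61plus, so this 1 plate set the lower share of the gate. Since each plate held 1 gate, the gate and the plate cannot be told apart.

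Fos also differed in level among the Fos-high cells of the plates. Its median was 6733 CPM on P1CD61minus (10 cells) and 6174 CPM on P1CD61plus (6 cells), but 15305 CPM on P2CD61minus (10 cells). On P2CD61plus 6 of the 10 Fos-low cells had no Fos count, on P1CD61minus 1 of 12. The lone Fos-high cell of P2CD61plus had 16778 CPM of Fos, with 3083 CPM of Jun and 2858 CPM of Egr1, where the highest of the 10 other cells had 73.4 CPM of Jun and 170 CPM of Egr1. Its Kitl, 1173 CPM, was below the median of 1799 CPM of those cells.

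The other genes were compared by the mean of log2(CPM + 10) over the cells of each class. A difference below is that of Fos-high minus Fos-low cells, pooled over the plates unless a plate is named. P2CD61plus held 10 of the 32 Fos-low but only 1 of the 29 Fos-high cells, so a pooled difference mixes plate with class. Of all genes, 5088 besides Fos and Cxcl12 reached 10 CPM in at least 25% of the 61 cells. A gene was called when its difference was 1 or more in size and had the same sign on each of the 3 plates with at least 3 cells of both classes (P1CD61minus, P1CD61plus and P2CD61minus). By this rule 126 genes were higher (2.48%) and 87 lower (1.71%) in Fos-high cells, so that 59.2% of the called genes were higher; with DESeq2's size factors the numbers were 182 and 58 (75.8% higher), and without the cell that stood apart 119 and 119. The difference was between -0.85 and 0.85 for 90% of all genes, with a median of -0.02. All counts below are to be read against these shares. Spearman's rho with Fos over the 61 cells is also given as a description; 30 genes had a rho of 0.5 or more and 2 of -0.5 or less.

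AP-1 subunits were higher in Fos-high cells as a group: 5 of the 5 that entered were called, with a median difference of 3.48. As Fos belongs to the same family and chose the classes, these counts describe the cells and support nothing. The called subunits were Jun, Junb and Jund, which pair with FOS, and Fosb and Fosl2, which can take its place in the pair. Batf, Jdp2 and Atf3 were seen at 10 CPM or more in too few cells to enter; Atf3, the stress-induced member, was in 3 of 29 Fos-high and 1 of 32 Fos-low cells.

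Jun differed most of all genes measured. It lay between 165 and 7561 CPM, median 2737 CPM, in Fos-high cells and between 0 and 1072 CPM, median 0.193 CPM, in Fos-low cells. The classes overlapped between 165 and 1072 CPM: 22 of 29 Fos-high cells were above every Fos-low cell, and 24 of 32 Fos-low cells were below every Fos-high cell. The mean log2(CPM + 10) was 11.03 ± 1.38 (SD, n = 29) against 5.11 ± 2.40 (SD, n = 32), a difference of 5.92 that is more than the SD of either class. It was 4.56 on P1CD61minus, 6.76 on P1CD61plus and 4.09 on P2CD61minus.

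Junb was less of a switch, since 24 of 32 Fos-low cells also held it at 10 CPM or more. It lay between 265 and 8789 CPM, median 2594 CPM, in Fos-high cells and between 0 and 6755 CPM, median 212 CPM, in Fos-low cells, with a difference of 3.94. Without the Fos-low cell that stood apart the highest Fos-low value was 2530 CPM and the difference 4.13. Jund had 80.1 to 4731 CPM, median 1076 CPM, in Fos-high and 0 to 2081 CPM, median 129 CPM, in Fos-low cells, a difference of 3.48. JUND is the subunit known to be present in resting cells, and Jund was at 10 CPM or more in 25 of 32 Fos-low cells.

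Jund followed Fos within the classes as well. Its rho with Fos was 0.85 over all 61 cells, 0.72 within the Fos-high and 0.64 within the Fos-low class. Jun had 0.86, 0.33 and 0.66 for the same groups, and Egr1 had 0.83, 0.61 and 0.54. Within the Fos-high and Fos-low classes, reads per cell had a rho with Fos of 0.39 and 0.65, and Cxcl12 one of 0.05 and 0.69. In the Fos-low class the values of Jun, Jund and Egr1 were thus no higher than that of Cxcl12. These cells share plates and differ in depth, so the values are descriptions; with the ranks taken within plates (58 cells), rho was 0.74 for Jun, 0.72 for Egr1 and 0.63 for Jund.

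Fosb, a close relative of Fos, was seldom seen in Fos-low cells: 21 of 29 Fos-high and 7 of 32 Fos-low cells had 10 CPM or more. Its median was 165 CPM (0 to 860) in Fos-high and 0 (0 to 208) in Fos-low cells, with a difference of 2.68. Fosl2, which encodes FRA-2, had a median of 20.7 CPM (0 to 310) against 0 (0 to 82.5), a difference of 1.38, and was at 10 CPM or more in 17 of 29 and 4 of 32 cells. On P1CD61minus its difference was 0.48.

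Of the other immediate early genes, 14 entered and 9 were called higher (Egr1, Ier2, Ier3, Ier5, Nr4a1, Klf6, Btg1, Btg2 and Zfp36), none lower. The median difference was 1.84, and it was 1.75 on P1CD61minus, 0.84 on P1CD61plus and 2.26 on P2CD61minus. Egr1, a zinc finger factor switched on by MAP kinase signals, came next to Jun. It lay between 129 and 3420 CPM, median 1438 CPM, in Fos-high cells and between 0 and 1942 CPM, median 0.422 CPM, in Fos-low cells. The difference was 5.18, with means of 10.07 ± 1.30 (SD, n = 29) and 4.90 ± 2.32 (SD, n = 32). All 29 Fos-high cells, but only 6 of the 32 Fos-low cells, had 100 CPM or more, and 10 Fos-high cells were above every Fos-low cell.

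The Ier genes, named for their immediate early response, were present in part of the Fos-high cells. Ier3 had a median of 344 CPM (0 to 3707) against 0 (0 to 1233), a difference of 3.39, and Ier5 one of 138 CPM (0 to 757) against 0 (0 to 170), a difference of 2.61. Ier2 had 31.9 CPM (0 to 3804) against 0 (0 to 503), a difference of 1.82. Ier3 was missing from 6 Fos-high cells and found at any count in 8 of 32 Fos-low cells.

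Zfp36, which encodes tristetraprolin, a protein that destabilizes AU-rich transcripts such as those of cytokines and Fos, was at 657 CPM (0 to 4838) in Fos-high and 69.0 CPM (0 to 4822) in Fos-low cells, a difference of 2.91. The highest Fos-low value without the cell that stood apart was 1100 CPM, and the difference then 3.11. Btg2, an antiproliferative transcription cofactor, was at 151 CPM (0 to 1833) against 0 (0 to 348), a difference of 2.77, and its relative Btg1 at 111 CPM (0 to 778) against 18.6 CPM (0 to 1235), a difference of 1.81; without the cell that stood apart, the highest Fos-low value of Btg1 was 170 CPM and its difference 1.97. Klf6, a Krüppel-like factor, differed by 2.15, with 0.37 on P1CD61plus and 5.76 on P2CD61minus. Nr4a1, an orphan nuclear receptor, differed by 1.85 and was at 10 CPM or more in 15 of 29 and 3 of 32 cells. Not all genes of the list were called: Zfp36l1, a paralog of Zfp36, had medians of 969 and 860 CPM, and Klf9, Klf10, Klf2 and Myc were not called either. The difference of Zfp36l1 was 0.47 to 1.15 under 21 alternative settings, and it was called in 1 of them. Klf4, singled out after its values were seen, was too sparse to enter, with 10 CPM or more in 13 of 29 Fos-high (44.8%, 26.4 to 64.3%) and 2 of 32 Fos-low cells (6.25%, 0.766 to 20.8%).

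**Figure D2:**
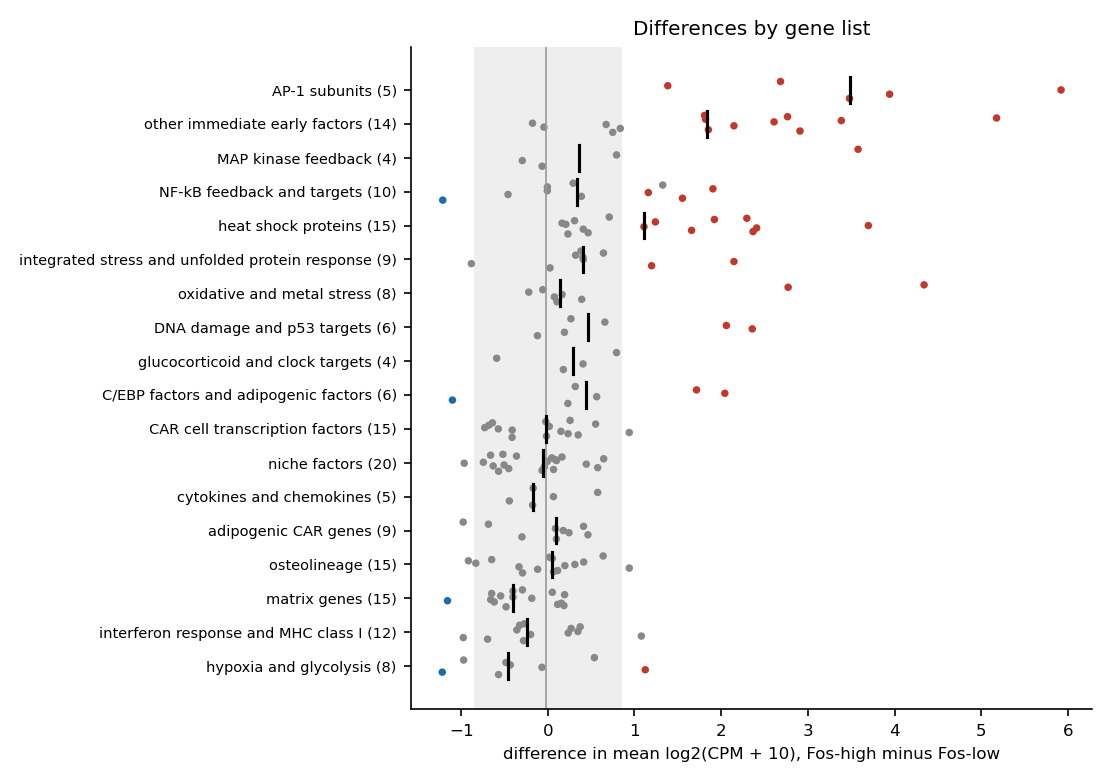
Difference in mean log2(CPM + 10), Fos-high minus Fos-low, for each entered gene of 18 gene lists, with the number of genes in brackets. Red and blue points are genes called higher and lower, black bars list medians, and the grey band the range of 90% of all genes, from -0.85 to 0.85; the 5 AP-1 subunits all lie right of the band, while the 20 niche factors hold no called gene.

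Heat shock proteins were the third group that went with Fos: 8 of the 15 that entered were called higher and none lower, all 15 differences were above 0, and their median was 1.11 (0.90 without the cell that stood apart). By plate the median was 1.41 on P1CD61minus and 1.19 on P2CD61minus, but only 0.44 on P1CD61plus. Hsp90aa1, the inducible HSP90 chaperone, was at 5507 CPM (0 to 23304) in Fos-high and 416 CPM (0 to 3471) in Fos-low cells. Its difference was 3.70, with means of 11.50 ± 2.68 (SD, n = 29) and 7.80 ± 2.83 (SD, n = 32), and 16 Fos-high cells were above every Fos-low cell. The lowest Fos-high cell had no Hsp90aa1 and 4 Fos-low cells had none, so that the classes overlapped at the low end. Within the Fos-high class Hsp90aa1 had a rho of 0.61 with Fos.

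Hspa8, the constitutive HSP70 that folds new proteins, was in nearly every cell of both classes and yet higher in Fos-high cells, at 2195 CPM (0 to 7705) against 664 CPM (118 to 3144), a difference of 1.66. Dnaja1, a cochaperone of HSP70, was at 888 CPM (0 to 7656) against 207 CPM (0 to 1212), a difference of 2.30. The inducible chaperones Hspa1a, Hspb1 and Dnajb1 had medians of 121, 106 and 118 CPM in Fos-high cells and of 0 in Fos-low cells, with differences of 2.41, 2.37 and 1.92. Hspa1a has a near-identical neighbour, Hspa1b, so reads may have been divided between them. Hsp90ab1, the constitutive HSP90, had a difference of 1.11 that was 0.90 without the cell that stood apart and then was not called. Dnajb9, a chaperone of the endoplasmic reticulum, had a difference of 1.24. Hspa5 (BiP), the main chaperone of that compartment, had medians of 2101 and 1635 CPM and a difference of 0.41 (0.18 without the cell that stood apart), and the heat shock factor Hsf1 one of 0.16.

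Other stress lists held fewer called genes. Of 8 oxidative and metal stress genes 2 were called higher, the metallothioneins Mt1 and Mt2, which bind zinc and copper. Mt1 ranged from 0 to 33435 CPM, median 1218 CPM, in Fos-high cells and from 0 to 2503 CPM, median 0, in Fos-low cells, a difference of 4.34. On P1CD61minus its difference was 0.95, with medians of 637 and 378 CPM, and on P1CD61plus and P2CD61minus it was 5.18 and 5.10. None of the 12 Fos-low cells without Fos had 100 CPM of Mt1, against 12 of all 32. Mt2 was at 287 CPM (0 to 8219) against 0 (0 to 2248), a difference of 2.77. Prdx1, an antioxidant peroxiredoxin, differed by -0.22.

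Of the integrated stress and unfolded protein response genes 8 of 9 had a difference above 0, with a median of 0.41, and 2 were called higher: Ppp1r15a (GADD34), which reverses the translation block of stressed cells, by 2.15, and Trib1 by 1.20. The median of this list was 0.65 on P1CD61minus, -0.20 on P1CD61plus and 1.42 on P2CD61minus. Xbp1, whose product drives genes of the secretory pathway, differed by 0.03. Of 6 DNA damage and p53 targets 5 had a difference above 0, with a median of 0.46 and medians of 1.08, 0.81 and 1.05 on P1CD61minus, P1CD61plus and P2CD61minus. Gadd45b and Gadd45g were called, by 2.06 and 2.36, while Cdkn1a (p21) had medians of 0 in both classes. The 2 called Gadd45 genes are known as targets of MAP kinase and NF-kB signals as well. Of 4 glucocorticoid and clock targets 0 were called, and Tsc22d3 (GILZ), a direct glucocorticoid target, had medians of 124 and 60.3 CPM.

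Ccn1 (Cyr61), a matricellular protein switched on by serum response factor and YAP, was 1 of only 2 called genes among 11 cytoskeletal serum response targets. It was at 4336 CPM (0 to 16839) in Fos-high and 181 CPM (0 to 3424) in Fos-low cells, a difference of 3.86, and 16 Fos-high cells were above every Fos-low cell. The actin gene Actb of the same list had medians of 5224 and 4812 CPM and a difference of 0.08. Myl9, a myosin light chain, was called lower with a difference of -1.03, a call lost under 12 of 20 alternative settings.

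Genes that feed back on these signals were mixed. Dusp1, the phosphatase that switches off p38 and JNK, was at 482 CPM (0 to 6296) in Fos-high and 0 (0 to 1184) in Fos-low cells, a difference of 3.58, and was the 1 of 4 MAP kinase feedback genes called. Spry1 and Spry2, inhibitors of growth factor signals to ERK, differed by -0.29 and -0.07. Of 10 NF-kB feedback genes and targets 3 were called higher, Nfkbia by 1.90, Socs3 by 1.55 and Nfkbiz by 1.16, and Tnfaip2 lower (-1.21). Nfkbia (I-kappa-B alpha) was at 532 CPM (0 to 1720) against 164 CPM (0 to 1034), and Socs3, an inhibitor of interleukin-6 family and leptin receptor signals, at 591 CPM (0 to 4185) against 265 CPM (0 to 4016). The NF-kB subunits Rela and Relb differed by -0.46 and 0.39 and were not called.

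**Figure D3:**
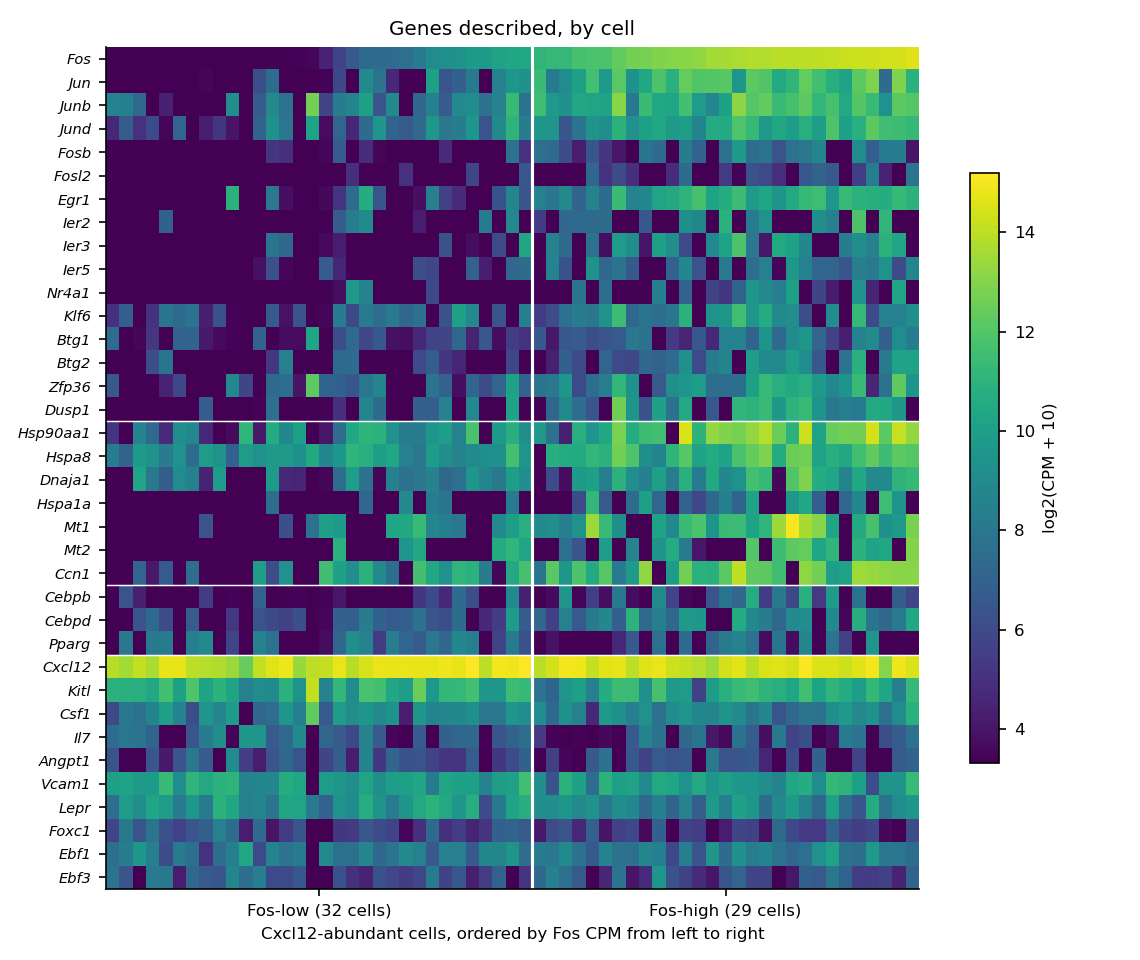
Levels as log2(CPM + 10) of 36 genes in the 61 Cxcl12-abundant cells, 1 column a cell, ordered by Fos from 0 CPM at the left to 25394 CPM at the right; the white upright line parts Fos-low from Fos-high cells. The upper rows (Fos to Dusp1) and the stress genes below them brighten to the right, while Cxcl12, Kitl, Lepr and the other rows at the bottom do not; the column with the cell that stood apart is bright for Junb, Kitl and Csf1 and dark for Vcam1, Ebf1 and Ebf3.

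Of 20 niche factors that entered besides Cxcl12, 0 were called in either direction, a count near that of the shares called over all genes. Their differences lay between -0.96 and 0.64 with a median of -0.05, and the median was -0.09 on P1CD61minus, -0.68 on P1CD61plus and 0.43 on P2CD61minus. The members named next were picked for their role, with their values known. Kitl (stem cell factor) was at 1311 CPM (40.8 to 3438) in Fos-high and 1799 CPM (348 to 17370) in Fos-low cells, with a difference of -0.50 and a rho of -0.00 with Fos. Without the cell that stood apart the highest Fos-low value was 5939 CPM and the difference -0.39. Its difference was -2.01 on P1CD61plus and 1.14 on P2CD61minus, so its sign depended on the plate.

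Csf1, the macrophage growth factor, was at 467 CPM (15.7 to 1823) in Fos-high and 424 CPM (0 to 5024) in Fos-low cells, where the highest value without the cell that stood apart was 1012 CPM. Il7, needed by B cell progenitors, had a median of 41.5 CPM (0 to 403) against 122 CPM (0 to 780); its difference of -0.96 was the lowest of the list, was negative on all 3 plates and fell just short of the limit of 1. Vcam1 had medians of 1049 and 1041 CPM, and Lepr, the leptin receptor that marks these cells, 463 CPM (78.7 to 1560) and 712 CPM (54.7 to 2026), a difference of -0.63 that was negative on all 3 plates. Angpt1 and Bmp4 differed by -0.52 and -0.66, and Igf1 and Gas6 by 0.10 and 0.09. For each of these genes the range of one class covered most of the range of the other.

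Cytokines and chemokines were mostly too sparse to compare. Of the 23 analysed 5 entered and 0 were called, with a median difference of -0.17. Cxcl14 had medians of 1321 and 1631 CPM, Ccl19 of 632 and 580 CPM and Il1rn, the interleukin-1 receptor antagonist, of 245 and 295 CPM; Ccl19 differed by 1.65 on P1CD61minus and by -2.99 on P2CD61minus. Inflammatory chemokines were looked at after their values were seen. Cxcl1, which attracts neutrophils, was at 10 CPM or more in 7 of 29 Fos-high cells (24.1%, 10.3 to 43.5%), up to 627 CPM, and had no count in any of the 32 Fos-low cells, where the interval reaches 10.9%. Ccl2, which attracts monocytes, was in 8 of 29 (27.6%, 12.7 to 47.2%) and 4 of 32 cells (12.5%, 3.51 to 29.0%), and Ccl7 in 7 and 4. Other sparse chemokines of the list leaned the other way: Cxcl5 was in 2 and 4 cells, Cxcl9 in 3 and 6, Cxcl13 in 1 and 3 and Ccl9 in 3 and 8. Cxcl16 was in 6 and 1, Ccl25 in 4 and 2 and Cxcl10 in 2 and 2, so the chemokines had no common direction. These intervals cover the counting of cells only, and the cells are no replicates, so they give no test of a difference between the classes.

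**Figure D4:**
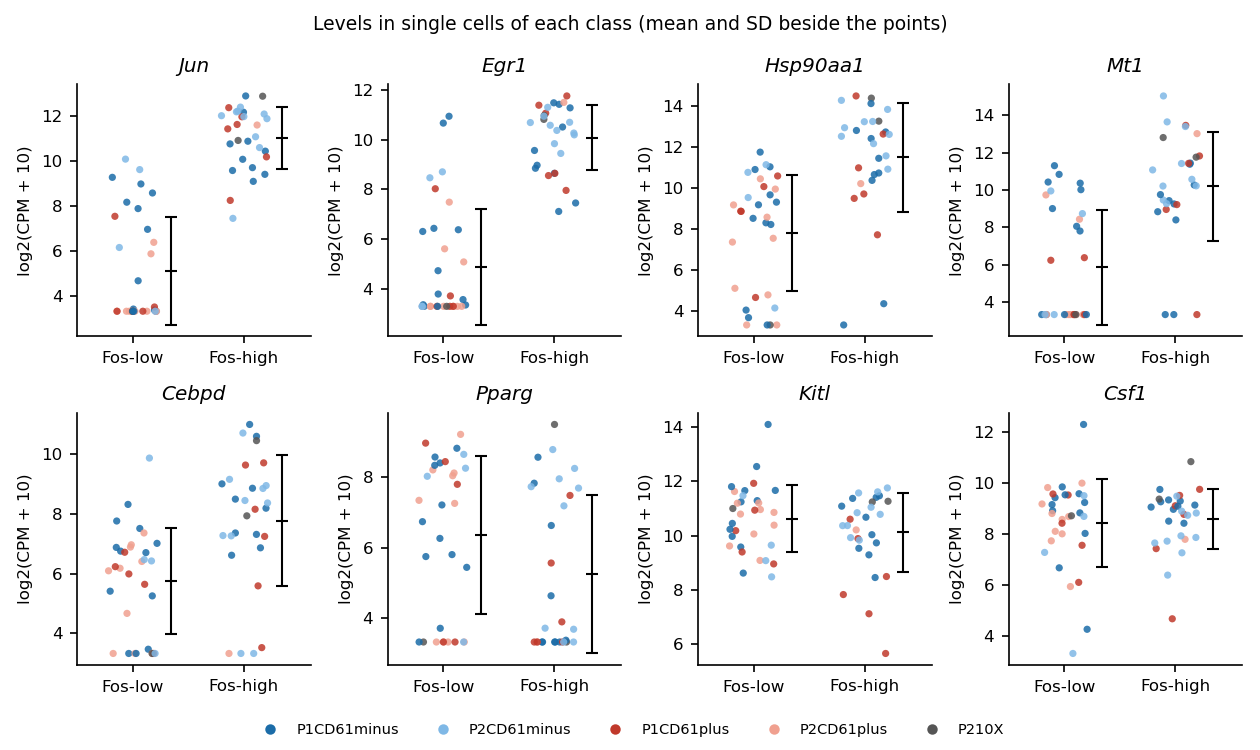
Levels as log2(CPM + 10) of 8 genes in single Fos-low and Fos-high cells (vertical axes; 32 and 29 points in each panel), coloured by plate, with the mean and SD beside the points. Jun and Egr1 lie apart in the classes with some overlap, and Hsp90aa1 and Mt1 overlap more. The classes also overlap for Kitl and Csf1, though the lowest Kitl is in a Fos-high cell and the highest Kitl and Csf1 are in Fos-low cells.

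Transcription factors of CAR cells gave no call either. Of 15 that entered 0 were called, a count near the shares called over all genes, with differences from -0.73 to 0.94 and a median of -0.02. Foxc1 and Ebf3, which maintain these cells, had medians of 38.8 and 51.7 CPM, and of 46.5 and 61.4 CPM, in Fos-high and Fos-low cells, with differences of -0.64 and -0.02. Ebf1 had 248 CPM (49.9 to 1143) and 295 CPM (0 to 1341, and from 22.4 CPM without the cell that stood apart), a difference of 0.26. Runx2, the master factor of bone-forming cells, had the largest difference of the list, 0.94, with medians of 132 and 81.9 CPM. Maf had the rho furthest below 0 of the list, -0.46, which was -0.15 within plates. Twist1, singled out after its values were seen, was too sparse to enter. It was at 10 CPM or more in 9 of 29 Fos-high and 1 of 32 Fos-low cells. The other sparse factors leaned the other way: Ebf2 was in 4 and 7 cells, Meis1 in 5 and 9, Zbtb16 in 2 and 4, and Tbx2 and Tbx18 each in 1 and 2.

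Of 6 C/EBP and adipogenic factors 3 were called. Cebpb and Cebpd, which act early in adipocyte differentiation and in acute phase responses, were higher. Cebpd was at 282 CPM (0 to 2037) in Fos-high and 63.8 CPM (0 to 927) in Fos-low cells, a difference of 2.04, and Cebpb at 41.5 CPM (0 to 1865) against 0.470 CPM (0 to 482), a difference of 1.72 that was 0.02 on P1CD61plus. Pparg, the later adipogenic regulator, was called lower, at 3.13 CPM (0 to 715) against 141 CPM (0 to 586), a difference of -1.10. That call was lost under 8 of 21 alternative settings, among them thinning to 1 depth (-0.97), with a difference as small as -0.16. Cebpa had medians of 147 and 94.7 CPM and a difference of 0.32.

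Of 9 adipogenic CAR genes, many of them lipid genes, 0 were called, which is also near the shares over all genes. Their median difference was 0.10, and it was 0.42 on P1CD61minus, -0.56 on P1CD61plus and -0.04 on P2CD61minus. Adipoq had medians of 2428 and 2559 CPM, with a difference of 1.08 on P1CD61minus and -5.90 on P1CD61plus. Lpl had 4453 CPM (79.3 to 9145) against 1957 CPM (218 to 8985), a difference of 0.46. Of 15 osteolineage genes 0 were called either, again near the shares over all genes. Their median difference was 0.05, but it was -0.63 on P1CD61minus, 0.96 on P1CD61plus and 0.97 on P2CD61minus, so its sign depended on the plate. Ibsp and Spp1 differed by -0.92 and 0.07, Spp1 by -2.12 on P1CD61minus and 3.44 on P2CD61minus.

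The lower genes with the largest difference among genes seen in 50% of Fos-low cells were Atp5g1 (-2.37), a subunit of ATP synthase, and Elob (-2.26), a subunit of elongin, followed by Fmc1, Fkbp7, Nbdy, Cryzl1, Ss18, Sec61b, Iah1, Ppic, Cnih4 and Tmed3 (-2.05 to -1.40). Elob was at 320 CPM (0 to 2776) in Fos-high and 902 CPM (0 to 3838) in Fos-low cells, and at 10 CPM or more in 17 of 29 and 29 of 32; its rho with Fos was -0.51. Atp5g1 was at 1.46 CPM (0 to 1691) against 455 CPM (0 to 2331). Each of these genes overlapped over most of its range.

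Matrix and housekeeping lists lay slightly below 0. Of 15 matrix genes 1 was called, Mgp, lower (-1.16), and the list's median was -0.40; that call was lost under 5 of 21 alternative settings. Of 92 genes with a symbol that starts with Rpl or Rps, which takes in ribosomal proteins, pseudogenes and the kinase gene Rps6kb1, 1 was called higher and 4 lower, with a median of -0.33. The called ones include Rps23-ps1 and Rps4l, which resemble parent genes and may share reads with them, and Rpl4, whose call was lost under 10 of 21 alternative settings. Of 11 mitochondrial genes 1 was called lower, mt-Nd6 (-1.44), with a median of -0.48. By plate the mitochondrial median was -0.44 on P1CD61minus, 0.39 on P1CD61plus and 0.19 on P2CD61minus, so its sign depended on the plate. The median of the Rpl and Rps genes was -0.34, -0.29 and 0.05 on the same plates. Among 8 hypoxia and glycolysis genes Ldha was higher by 1.12 (0.99 without the cell that stood apart) and Pgam1 lower (-1.22). Of 12 interferon response and MHC class I genes 0 were called; B2m had medians of 6454 and 9489 CPM and a rho of -0.45, and its difference was -0.27, or -0.57 without the cell that stood apart.

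Some of the genes with the largest differences were on none of the lists and were chosen after their values were seen. Id3 and Id2, inhibitors of basic helix-loop-helix factors and targets of BMP signals, were higher by 2.27 and 2.34. Id3 was at 4613 CPM (405 to 17349) in Fos-high and 1276 CPM (0.937 to 7119) in Fos-low cells. The survival factor Mcl1 and the kinase Pim1 were higher by 2.18 and 1.65.

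Single cells were not all of one kind within a class. Of the 14 called AP-1 and immediate early genes a Fos-high cell held 6 to 13 at 100 CPM or more, with a median of 10, and a Fos-low cell 0 to 8, with a median of 3. The classes overlapped at 6 to 8 genes, where 11 Fos-high and 7 Fos-low cells were, and 5 Fos-low cells had none of the 14. No cell had all 14. The genes were chosen for their difference, so that these counts only describe how they spread over cells.

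Cells without Fos were not free of its relatives. Of the 12 cells with no Fos count, 4 had Junb and 2 had Jund at 100 CPM or more, but 0 had Jun or Fosb and 1 had Egr1. Of the same 12 cells 5 had Hsp90aa1 at that level, and 3 had Ccn1. In the other direction, 5 of 29 Fos-high cells had no Fosb count and 5 no Dusp1 count, while none lacked Jun, Junb, Jund or Egr1.

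The 30 cells under the Cxcl12 limit gave a comparison outside the Cxcl12-abundant cells. With the same Fos limit 13 were high and 17 low. The 5 AP-1 subunits had a median difference of 2.36 there, the 14 immediate early genes of 1.75 and the 15 heat shock proteins of 1.06, against 0.32 over all 5088 genes. Jun differed by 3.86 and Egr1 by 3.16. Of the 126 genes called higher in Cxcl12-abundant cells 110 (87.3%) had a difference above 0 in these cells, against 72.0% of all genes entered, and of the 87 called lower 52 (59.8%) did.

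The metallothioneins did not show this in the cells under the limit, where Mt1 differed by -1.36 and Mt2 by -0.92, against 4.34 and 2.77 in Cxcl12-abundant cells. The difference between these groups of cells was not tested. The 30 cells are of mixed kind, and the levels of 13 cells set the Fos-high side.

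Depth and the other measures of each cell moved in part with Fos. Reads per cell ranged from 824954 to 4991550, median 2467460, in Fos-high cells and from 507713 to 3209360, median 1735480, in Fos-low cells, with a rho of 0.55 with Fos that was 0.30 within plates. Genes per cell, counted by the authors from 4 counts, were 4162 (2750 to 6565) against 4128.5 (1244 to 6429). With all cells thinned to 800000 counts, which left out 2 Fos-low cells, they were 3667 (2632 to 5508) against 3942 (1060 to 5558). Thinned in this way the difference of Jun was 5.80, of Egr1 5.07, of Hsp90aa1 3.45 and of Mt1 4.28.

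**Figure D5:**
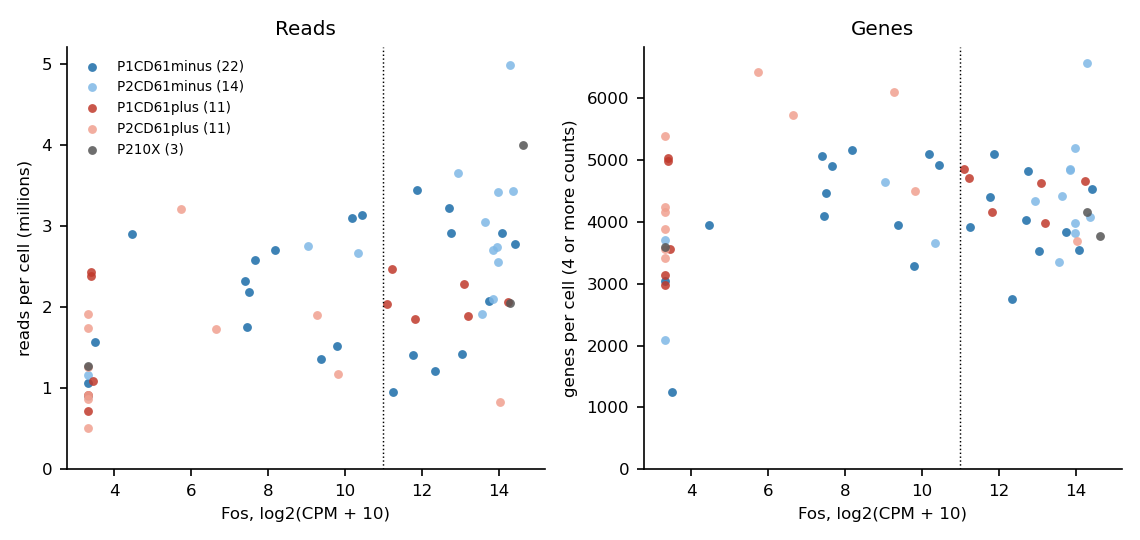
Reads per cell (left, scaled as its axis label says) and genes with at least 4 counts per cell (right) against Fos as log2(CPM + 10) in the 61 Cxcl12-abundant cells, coloured by plate, with the dotted line at 2000 CPM of Fos. Fos-low cells reach lower read numbers (down to 507713) than Fos-high cells (824954), while the numbers of genes cover much the same range.

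The share of counts in the called higher genes and Fos was 8.59% (3.40 to 15.7%) in Fos-high and 2.22% (1.07 to 5.71%) in Fos-low cells, of which Fos itself took a median of 1.27% in the former. CPM is a share, so each of these genes takes from the rest of its cell; with CPM scaled to the sum of the other genes, a choice made after seeing the data, 145 genes were higher and 75 lower. The mitochondrial share of counts was 1.04% (0.350 to 3.93%) against 1.30% (0.208 to 5.83%), and that of the Rpl and Rps genes 4.53% against 6.24%. The median mitochondrial share was 0.816% against 1.28% on P1CD61minus. It was 1.57% against 1.26% on P1CD61plus and 1.10% against 0.873% on P2CD61minus. Its rho with Fos was -0.37 over all cells and -0.31 within plates. Of the proteins measured in the index sort, CD61 staining had a median intensity of 903 in Fos-high and 1531 in Fos-low cells, and a rho of -0.41 with Fos that was -0.03 within plates. CD51, the integrin alpha V chain, had 242 (17 to 1023) against 125 (1 to 1083), and a rho of 0.33 that was 0.39 within plates. VCAM1 had 755 against 541.5, and forward scatter 116027 against 123592. On P1CD61plus the median of CD200 was 1978.5 in Fos-high and 214 in Fos-low cells. It was 333.5 against 319.5 on P1CD61minus and 351 against 348 on P2CD61minus. CD45 had 1022.5 against 281, 598 against 282.5 and 275.5 against 261 on the same plates in that order. The DNA dye had 85326.5 against 56836, 49609.5 against 53227 and 69522 against 71092. The recorded sort time had a rho of -0.10 with Fos. The part of depth, sorting and cell isolation in these differences was not tested.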

How the data were processed

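Expected counts per gene and cell were deposited by the authors, who estimated them with kallisto 0.43.0 and worked in R 3.5.1, per the submitters' processing notes, which name the build mm10; every deposited value was whole. Surface staining came as fluorescence intensities of the index sort, as deposited by the authors. The other 35 metadata columns were not used. The 91 cells had 16580 genes and 0 identical pairs. CPM, thinning, ranks and calls were computed with pandas 2.3.3 and numpy 2.4.6 under Python 3.11.15. Intervals came from scipy 1.17.1, figures from matplotlib 3.10.9, and scaling factors from edgeR 4.0.16 and DESeq2 1.42.0 in R 4.3.3. Only the differences between the classes and the calls were checked on simulated cells. No test was run, since Fos chose the classes and cells of unnamed animals are no replicates. Intervals are Clopper-Pearson at 95% and cover counting error only. The members and gene lists were chosen with earlier results of these data known. Named were, for each direction, the 12 called genes of largest difference seen at 10 CPM in 50% of the higher class, all called genes and the 3 most abundant of each list, and the 10 highest and 5 lowest by rho. Other genes named were chosen after their values were seen. Promoters and motifs are from RefSeq, build GRCm38.p6.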

Additional observations from a re-analysis of the deposited data

Results flagged for a closer look

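In 42 groups of 4 to 10 cells of 1 class and plate and 1 measure, 2 had a cell farther from the rest than Dixon's limit, and chance alone flags about 1 in 20 groups. Among the 10 Fos-high cells of P1CD61minus, 1 cell had a mean log2(CPM + 10) over the niche factors of 6.046, where the other cells had 6.926 to 7.643. Among the 10 Fos-low cells of P2CD61plus, 1 cell had a mitochondrial share of counts of 5.731%, where the others had 0.7266 to 2.724%. No cause was tested for either cell.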

How the results depend on the processing

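The median difference of the AP-1 subunits was positive under all 21 alternative settings (2.03 to 4.55), as was that of the other immediate early genes (0.749 to 2.80) and of the heat shock proteins (0.709 to 1.66); the filters change which members enter a list. The median of the niche factors lay between -0.391 and 0.0979 and that of the cytokines between -0.609 and 0.193. Of the 126 genes called higher 75 to 126 were called again under these settings, and of the 87 lower ones 39 to 87. Over the named and listed genes 2262 values stayed on their side of the call, 104 lost it, 16 gained it and 0 reversed a call.

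The number of called genes depended on the setting. A pseudocount of 1 CPM gave 371 higher and 272 lower genes, with medians of 4.545 for AP-1 and 2.802 for the other immediate early genes. With no filter on low values these medians were 2.034 and 0.7489. Asking for 10 CPM in 50% of cells left 75 higher and 41 lower genes and a heat shock median of 1.658. Leaving out 1 of the 3 plates on which the sign had to agree gave 263 and 222 genes without P1CD61minus, 193 and 236 without P2CD61minus and 195 higher ones without P1CD61plus. Without P2CD61plus, where the sign was not asked for, 220 genes were higher; the cause was not tested. The log2 ratio of mean CPM gave 194 higher genes, an AP-1 median of 2.429 and a CAR transcription factor median of -0.3561. The mean of the within-plate differences gave 277 higher and 148 lower genes. Jun then differed by 5.14, Hsp90aa1 by 2.74 and Mt2 by 1.90, each less than pooled, and Hsp90ab1 (0.88) lost its call. Id2 (2.93) and Mgp (-2.74) differed by more than pooled. The share of Fos-high cells was 37.7 to 52.46% under other limits. Reads per cell limit low genes most, and a gene without a count in a cell was not detectable at that depth.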
